A study of Mus musculus with 15 samples.

Results

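The thrombospondins are a small family of secreted matrix glycoproteins encoded in the mouse by Thbs1, Thbs2, Thbs3, Thbs4 and Comp (cartilage oligomeric matrix protein, also called thrombospondin 5). All 5 genes were found among the 33340 genes of the count table by symbol, after Ensembl gene identifiers were matched to GENCODE M21. The family was selected on the higher CPM of Thbs4 after bleomycin in an earlier analysis of these libraries, so the Thbs4 values below are a description and carry no test. Whole-lung RNA of adult male C57BL/6 mice was sequenced in 15 libraries, of which 4 were day 0 controls and 4, 4 and 3 were taken 7, 14 and 21 days after bleomycin. The later groups had received bleomycin once through the trachea, at 5 U/kg. This drug breaks DNA and leaves fibrotic lungs. No group carried a named allele. Day 0 libraries were titled as controls and labelled untreated, except that the treatment label of day 0 replicate 4 named bleomycin. The title was followed for that library. Leaving it out changed no call of a thrombospondin gene against day 0.

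Thrombospondins bind cell surface receptors, proteases, growth factors and other matrix proteins, and so tune how cells attach to and remodel the matrix. Thrombospondin 1 and thrombospondin 2 form trimers and carry the type 1 repeats, through which both bind CD36. Thrombospondin 1 is stored in platelet granules, is made by many cells after injury, and can release active TGFβ from its latent complex. The proteins encoded by Thbs3, Thbs4 and Comp lack type 1 repeats and form pentamers, and they are known mainly from bone, tendon, muscle and cartilage. Inside the cell, thrombospondin 4 binds ATF6, a sensor of endoplasmic reticulum stress.

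Libraries held 15652008 to 18020661 counts, and 17457 genes were tested. Levels are given as CPM, the counts scaled to the TMM-adjusted size of each library, and replicates are listed in the order of their numbers. The share of counts from 16 mitochondrial genes ranged from 2.03% to 4.22% and differed within days. It was 2.28% and 2.31% in day 0 replicates 1 and 2, 4.22% and 4.04% in day 0 replicates 3 and 4, and at most 2.15% in all day 7 libraries. Day 14 replicate 1 had 2.1%, and the other 3 libraries of that day at least 3.73%. Nothing in the labels states that libraries came from separate animals, so p-values measure the spread between these samples. Fewer cells of a type and less RNA per cell cannot be told apart in whole-lung RNA.

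The 5 genes lie on different chromosomes. On mm10, Thbs1 (ENSMUSG00000040152) spans chr2:118111876-118127133 on the plus strand, Thbs2 (ENSMUSG00000023885) spans chr17:14665500-14694235 on the minus strand, and Thbs3 (ENSMUSG00000028047) spans chr3:89215180-89226837 on the plus strand. Thbs4 (ENSMUSG00000021702) spans chr13:92751590-92794818 on the minus strand and Comp (ENSMUSG00000031849) spans chr8:70373558-70382066 on the plus strand. The longest transcript had 22 exons for Thbs1, Thbs2 and Thbs4, 21 for Thbs3 and 19 for Comp. Of the exon bases of Thbs3, 6.59% are shared with Mtx1 on the opposite strand. The strand setting of the counting was not stated, so reads there cannot be assigned to a gene with certainty.

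RefSeq promoter windows (GRCm38.p6) were at hand for Thbs2, Thbs3 and Thbs4. They are shown because Thbs2 and Thbs4 were higher after bleomycin while Thbs3 was lower. Each window is the 250 bases before the start site, written 5′ to 3′ on the strand of the gene: chr17:14694263-14694512 for Thbs2, chr13:92794819-92795068 for Thbs4 and chr3:89214930-89215179 for Thbs3. Capitals mark matches, on either strand, to any of 6 short motifs. The TATA box was searched as TATAAA and the SMAD box as CAGAC. The AP-1 site was searched as TGANTCA and the TEAD site as CATTCC. The GC box was searched as GGGCGG and the CCAAT box by the letters of its name.
Thbs2: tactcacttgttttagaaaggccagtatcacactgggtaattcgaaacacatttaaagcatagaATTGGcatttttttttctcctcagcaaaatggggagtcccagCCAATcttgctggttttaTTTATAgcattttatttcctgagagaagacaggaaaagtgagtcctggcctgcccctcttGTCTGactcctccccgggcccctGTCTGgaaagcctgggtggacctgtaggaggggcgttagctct
Thbs4: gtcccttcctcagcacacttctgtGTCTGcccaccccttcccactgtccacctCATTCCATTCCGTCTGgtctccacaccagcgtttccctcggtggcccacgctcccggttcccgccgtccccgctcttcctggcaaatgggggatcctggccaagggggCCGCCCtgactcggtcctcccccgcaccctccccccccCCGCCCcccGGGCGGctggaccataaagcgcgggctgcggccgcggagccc
Thbs3: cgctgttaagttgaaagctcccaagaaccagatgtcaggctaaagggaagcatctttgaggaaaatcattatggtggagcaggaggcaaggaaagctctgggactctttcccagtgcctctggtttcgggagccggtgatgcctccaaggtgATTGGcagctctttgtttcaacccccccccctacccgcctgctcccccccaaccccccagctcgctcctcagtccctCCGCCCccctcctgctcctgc

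The windows differed in composition, with a GC content of 46.8% for Thbs2, 58.8% for Thbs3 and 70.8% for Thbs4. The Thbs2 window held 2 SMAD boxes, 2 CCAAT boxes and a TATA box on the minus strand. The Thbs4 window held 2 SMAD boxes, 3 GC boxes and 2 TEAD sites that overlap by 1 base. The Thbs3 window held 1 CCAAT box and 1 GC box. Of 32851 promoter windows of this length, 42.2% held a SMAD box, 12.6% a TEAD site, 32.7% a GC box, 33.8% a CCAAT box, 12.4% a TATA box and 6.75% an AP-1 site. A match describes the letters and is no evidence of binding.

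To follow each gene through the injury, its level was compared with day 0. Thbs1 rose at all later days, and Thbs2 rose at days 14 and 21. Comp had higher values at days 14 and 21. Thbs3 fell at all later days. Thbs4 went from near the limit of counting to a mean of 47.5 CPM at day 21. A gene was called where the edgeR adjusted p was under 0.05 and the fold change was over 1.5. Of Thbs1, Thbs2 and Thbs3, 1 was called higher and 1 lower at day 7, and 2 were called higher and 1 lower at each of days 14 and 21. Over all genes, 16.1% were called at day 7 (8.78% higher and 7.36% lower), 23.1% at day 14 (12% higher and 11.2% lower), and 22.5% at day 21 (12.4% higher and 10.1% lower). Comp and Thbs4 passed the filter on low counts through their later libraries, since no day 0 library reached its cutoff of 0.586 CPM for either gene, and both are left out of these counts. The plot of CPM by library shows the values behind these calls. The shares over all genes are also the background for the counts of called genes in the lists below. A count near its share says nothing particular about a list.

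**Figure D1:**
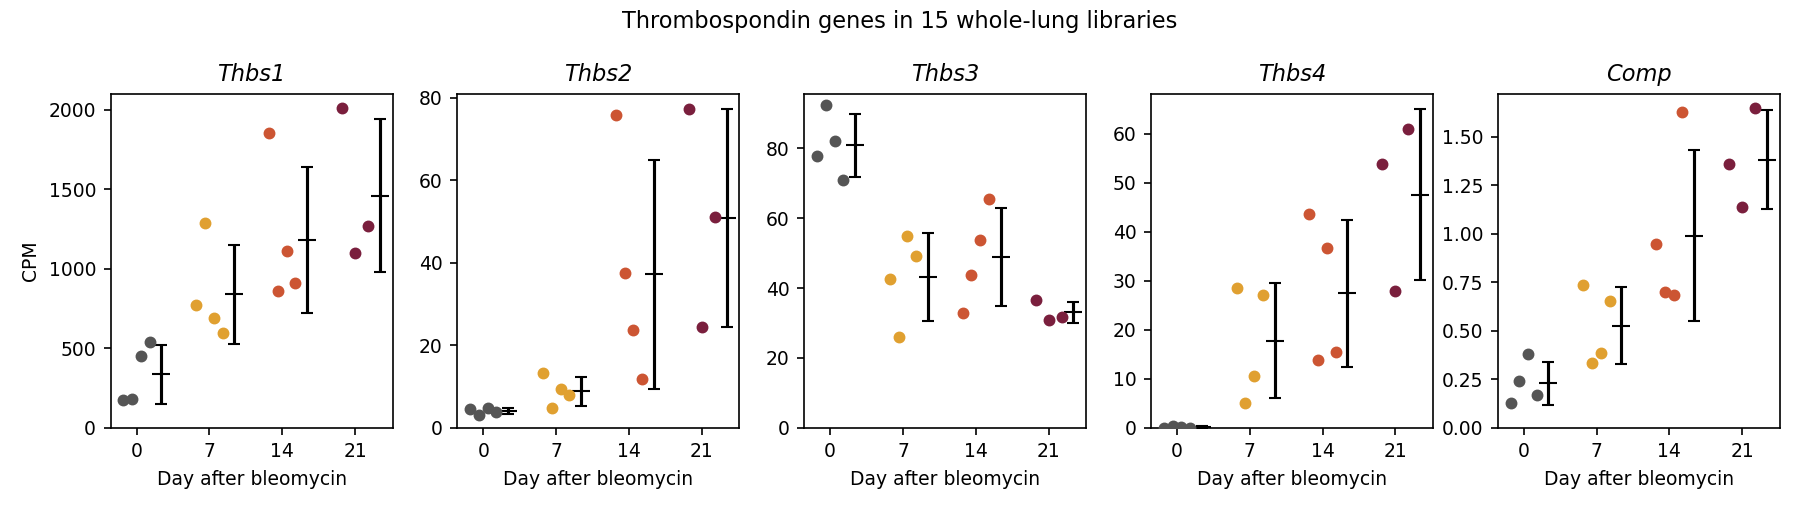
CPM of each thrombospondin gene (y axis, linear and from 0, scaled per gene) against day after bleomycin (x axis), with 1 point per library and the mean ± SD beside each day (n = 4, 4, 4 and 3). Day 0 is the control. Thbs3 is the only 1 of the 5 genes whose later libraries all lie below every day 0 library, and Thbs4 rises from 0 to 0.302 CPM at day 0 to 27.8 to 60.9 CPM at day 21.

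Thbs1 had the highest level of the family. In the day 0 libraries it was at 174.4, 180, 450.6 and 538 CPM. At day 7 it was at 774.3, 1290, 691.2 and 599.4 CPM. At day 14 it was at 1854, 859.2, 1112 and 909 CPM, and at day 21 at 2010, 1102 and 1270 CPM. Every later library was above every day 0 library, while days 7, 14 and 21 overlapped. The mean went from 336 ± 187 CPM at day 0 (SD, n = 4) to 839 ± 309 at day 7 (n = 4), 1184 ± 460 at day 14 (n = 4) and 1461 ± 483 at day 21 (n = 3). The log2 fold change was 1.32 at day 7 (SE 0.381, edgeR adjusted p 0.0207), 1.82 at day 14 (SE 0.387, edgeR adjusted p 0.00224) and 2.12 at day 21 (SE 0.408, edgeR adjusted p 0.00126).

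The day 0 libraries of Thbs1 fell into a lower and a higher pair. Replicates 3 and 4, the higher pair, also had the higher mitochondrial share. They had the highest summed level of 12 immediate early genes as well, at 2041 and 4927 CPM against 1275 and 1002 CPM in replicates 1 and 2 and 1116 to 1557 CPM in all later libraries. Of the 12 immediate early genes, 4 were called lower and 0 higher at day 7, 5 lower and 1 higher at day 14, and 3 lower and 0 higher at day 21. Without day 14 replicate 1 the count at day 14 was 3 lower and 1 higher, and the genes that lost the call kept the size of their change, Dusp1 at -1.17 and Zfp36 at -1.17. The part of either property in the Thbs1 levels was not tested. Against replicates 3 and 4 alone, the day 7 change of Thbs1 was 0.73 (edgeR adjusted p 0.165), against replicates 1 and 2 alone it was 2.23 (edgeR adjusted p 0.00578), and with mitochondrial share as a covariate it was 1.63 (edgeR adjusted p 0.057). The day 7 call was also lost without day 0 replicate 1, day 0 replicate 2 or day 7 replicate 2, with changes of 1.04 to 1.62 over all libraries left out. At day 14 the change was 1.23 against replicates 3 and 4 alone, 2.72 against replicates 1 and 2 alone and 0.94 within the libraries of higher mitochondrial share, and each was called. At day 21 it was 1.52 and 3.01 against these pairs, and both were called.

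**Figure D2:**
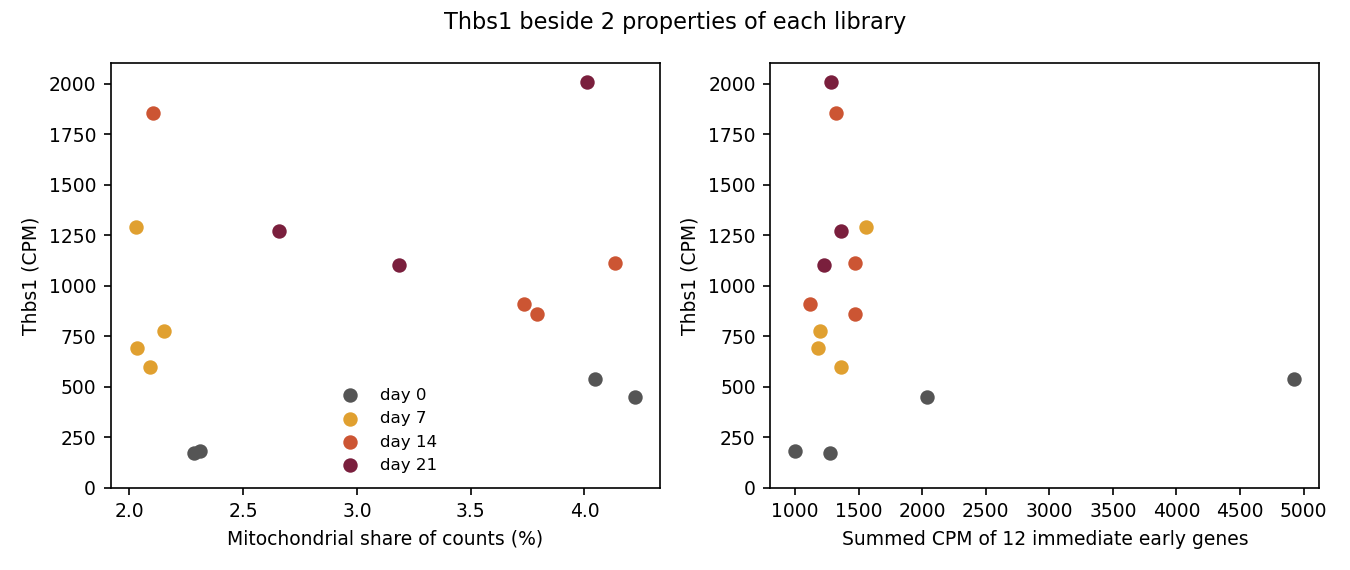
Thbs1 in CPM (y axes) against the mitochondrial share of counts in percent (left) and against the summed CPM of 12 immediate early genes (right), with 1 point per library coloured by day. Day 0 libraries lie lowest on the y axes at 174 to 538 CPM, and the pair of day 0 libraries with the larger values on both x axes is also the pair with more Thbs1.

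Since Thbs1 protein is abundant in platelets, 8 platelet and megakaryocyte genes were set beside it. Their summed level was 49.0 to 86.5 CPM at day 0, 34.6 to 53.1 at day 7, 28.2 to 53.0 at day 14 and 41.4 to 76.1 at day 21. At day 7, 3 of the 8 genes were called lower and none higher, at day 14 5 were lower and none higher, and at day 21 1 was lower and 1 higher. Over all genes, 12.4% were called higher and 10.1% lower at day 21, and the day 21 counts of this list lie near these shares. The platelet gene called higher at day 21 was Pf4, which encodes platelet factor 4 and was named after its values were seen, at 1.15 (edgeR adjusted p 0.0199). The part of platelets in the Thbs1 levels was not tested.

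Thbs2, which encodes the closest relative of thrombospondin 1 and is known for restraining vessel growth and for collagen fibril assembly, was low at day 0, at 4.47, 3.21, 4.83 and 3.91 CPM. At day 7 it was at 13.2, 4.86, 9.45 and 7.97 CPM. At day 14 it was at 75.7, 37.5, 23.6 and 11.8 CPM, and at day 21 at 77.2, 24.4 and 51.1 CPM. All later libraries lay above the day 0 libraries, day 7 replicate 2 by a margin of less than 0.1 CPM, and days 14 and 21 overlapped. The log2 fold change was 1.11 at day 7 (SE 0.496, edgeR adjusted p 0.111), which was not called, 3.18 at day 14 (SE 0.505, edgeR adjusted p 0.000252) and 3.63 at day 21 (SE 0.528, edgeR adjusted p 0.000147). The day 14 change was 2.54 without day 14 replicate 1 and 2.47 within the libraries of higher mitochondrial share, and was called in both. Fitted to the libraries of days 0 and 7 alone, the day 7 change was 1.08 and was called (edgeR adjusted p 0.0137). The spread within day 14 was wide, with an SD of 1.12 on the log2 scale, and 97.6% of genes had a smaller SD there.

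Thbs4, known from tendon, muscle and heart, was nearly absent from the day 0 libraries. Its counts there were 1, 5, 4 and 0, or 0.0647, 0.302, 0.254 and 0 CPM, and the 0 in replicate 4 allows up to 0.167 CPM at 3 counts. At day 7 it was at 28.5, 5.14, 10.5 and 27.0 CPM. At day 14 it was at 43.5, 13.9, 36.7 and 15.4 CPM, and at day 21 at 53.8, 27.8 and 60.9 CPM. Every later library lay above every day 0 library, and days 7, 14 and 21 overlapped. The mean went from 0.155 ± 0.146 CPM at day 0 (SD, n = 4) to 17.8 ± 11.7 at day 7 (n = 4), 27.4 ± 14.96 at day 14 (n = 4) and 47.5 ± 17.4 at day 21 (n = 3). The fitted log2 fold change was 6.79 at day 7 (SE 0.808), 7.42 at day 14 (SE 0.802) and 8.21 at day 21 (SE 0.815). These sizes rest on 10 counts in all at day 0. The ratio of the pooled CPM was 115 at day 7, with a counting interval at 95% of 62.5 to 241, 182 at day 14 (99.0 to 381) and 310 at day 21 (168 to 647). Such intervals cover counting error only. Thbs4 varied among day 7 libraries with an SD of 1.17 on the log2 scale, and 98.6% of genes varied less.

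Thbs4 is also made by heart and skeletal muscle, which a whole lung can carry along. The summed level of 7 cardiac muscle genes ranged from 23.7 to 284 CPM at day 0, 27.3 to 645 at day 7, 25.9 to 42.8 at day 14 and 18.8 to 758 at day 21. That of 8 skeletal muscle genes ranged from 1.81 to 5.90 CPM at day 0, 2.36 to 18.2 at day 7, 1.85 to 4.08 at day 14 and 3.82 to 9.46 at day 21, with Myh4 and Myot at 0 in all day 0 libraries and Myh4 at 0 in all day 21 libraries. Of the cardiac genes, 6 of 7 were tested and 1 was called, Myh6, named after its values were seen and lower at day 14 (-9.61). Without day 14 replicate 1 its change was as large, at -9.78, and was not called (edgeR adjusted p 0.101). Of the skeletal muscle genes, 4 of 8 passed the filter. Acta1, named after its values were seen, averaged 0.0923, 1.39, 0.454 and 1.09 CPM at days 0, 7, 14 and 21. It passed only through its later libraries and is given without a test, and none of the other 3 genes was called. The part of muscle tissue in the Thbs4 levels was not tested.

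Comp, a cartilage and tendon matrix protein, was the lowest member of the family from day 7 on, and overlapped with Thbs4 at day 0. Its counts were 2, 4, 6 and 3 in the day 0 libraries and 13, 6, 7 and 11 in those of day 7. They were 16, 11, 12 and 27 in the day 14 libraries and 22, 20 and 28 in those of day 21. The mean was 0.230 ± 0.111 CPM at day 0 (SD, n = 4), 0.527 ± 0.198 at day 7 (n = 4), 0.991 ± 0.442 at day 14 (n = 4) and 1.38 ± 0.254 at day 21 (n = 3). Day 7 replicate 2 lay within the day 0 range, and all day 14 and day 21 libraries lay above it. The log2 fold change was 1.17 at day 7 (SE 0.46, edgeR adjusted p 0.0735), which was not called, 2.08 at day 14 (SE 0.443, edgeR adjusted p 0.0023) and 2.56 at day 21 (SE 0.458, edgeR adjusted p 0.00076). Since Comp entered that fit only through its higher libraries, it was also fitted without the filter, where the change was 2.06 at day 14 (edgeR adjusted p 0.00482) and 2.51 at day 21 (edgeR adjusted p 0.00105). The day 14 call was lost within the libraries of higher mitochondrial share, where the change was 1.86 (edgeR adjusted p 0.0968).

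Cartilage and tendon genes stayed at a low level. The summed level of 14 such genes was 10.5 to 15.6 CPM at day 0, 13.6 to 20.1 at day 7, 21.8 to 31.1 at day 14 and 16.7 to 23.2 at day 21. Of the 14 genes, 4 passed the filter on low counts. Of these, 0 were called at day 7, 2 higher at day 14 and 1 higher at day 21, counts that include Hapln1, whose day 0 mean of 0.547 CPM lay under the filter cutoff. Apart from Hapln1, Scx was called at day 14 (1.13, edgeR adjusted p 0.0116) and no gene was called at day 21. The cartilage gene Snorc was at 0 in all libraries of days 0, 14 and 21, and the tendon gene Tnmd was at 0 in all libraries of days 7, 14 and 21. The part of this summed level in the level of Comp was not tested.

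Thbs3, which encodes a pentameric member without type 1 repeats, was the member that fell. It was at 77.9, 92.3, 82.1 and 70.8 CPM at day 0. It was at 42.6, 25.9, 54.8 and 49.0 CPM at day 7, at 32.8, 43.8, 53.7 and 65.6 CPM at day 14, and at 36.5, 30.9 and 31.6 CPM at day 21. Every later library lay below every day 0 library, with day 14 replicate 4 the nearest to day 0. The log2 fold change was -0.91 at day 7 (SE 0.213, edgeR adjusted p 0.00705), -0.72 at day 14 (SE 0.212, edgeR adjusted p 0.0166) and -1.29 at day 21 (SE 0.237, edgeR adjusted p 0.00091). The day 7 call was lost with mitochondrial share as a covariate (-0.77, edgeR adjusted p 0.0649). The day 14 call was lost against day 0 replicates 3 and 4 alone (-0.67, edgeR adjusted p 0.0829) and within the libraries of higher mitochondrial share (-0.50, edgeR adjusted p 0.0846). Mtx1, which shares exon bases with Thbs3, ranged from 9.43 to 17.8 CPM over the 15 libraries.

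**Figure D3:**
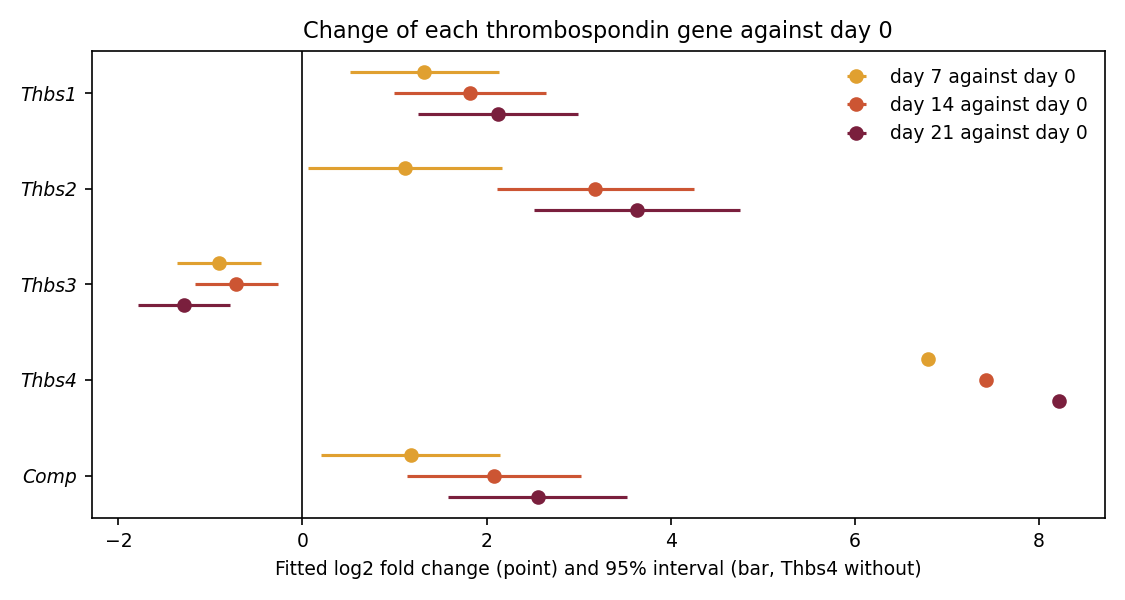
Fitted log2 fold change against day 0 (x axis) of each thrombospondin gene (y axis) at days 7, 14 and 21, with the 95% interval as a bar except for Thbs4, which is a description without a test. Thbs3 lies below 0 at each day, from -0.72 to -1.29, and the other genes lie above 0, with Thbs4 at 6.79 to 8.21.

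To see which genes kept changing after day 7, the later days were compared with each other. Thbs2 rose further, by 2.07 on the log2 scale from day 7 to day 14 (SE 0.472, edgeR adjusted p 0.0203) and by 2.52 from day 7 to day 21 (SE 0.497, edgeR adjusted p 0.00649). Its day 14 libraries were above all day 7 libraries in 3 of 4 cases and its day 21 libraries in 3 of 3. The first of these calls was lost without day 7 replicate 3, day 7 replicate 4 or day 14 replicate 2, where the change stayed as large, at 2.1, 2.02 and 2.06 (edgeR adjusted p 0.0503 to 0.0616), and with limma voom (1.84, adjusted p 0.0599), and the change was 1.46 and still called without day 14 replicate 1. Comp differed by 1.38 between days 7 and 21 (SE 0.418). Its edgeR adjusted p was 0.0423 with the filter on low counts, which it passed through its higher libraries, and 0.101 without the filter, where the difference was 1.35. It is therefore not taken as a change. With any 1 of the 7 libraries left out (differences of 1.21 to 1.57) or with mitochondrial share as a covariate (1.27, edgeR adjusted p 0.154) it was not called. Over all genes, 6% were called between days 7 and 14 (2.77% higher and 3.23% lower at day 14) and 9.54% between days 7 and 21 (5.20% higher and 4.34% lower at day 21).

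Thbs1 differed by 0.50 between days 7 and 14 (95% interval -0.301 to 1.29, edgeR adjusted p 0.434) and by 0.80 between days 7 and 21 (-0.0534 to 1.65, edgeR adjusted p 0.194). Thbs3 differed by 0.18 between days 7 and 14 (-0.268 to 0.635, edgeR adjusted p 0.623) and by -0.38 between days 7 and 21 (-0.877 to 0.11, edgeR adjusted p 0.279). Neither gene was thus called after day 7, and the intervals leave room for a change in either direction. Comp differed by 0.90 between days 7 and 14 (0.054 to 1.75, edgeR adjusted p 0.173). The fitted differences of Thbs4 were 0.63 between days 7 and 14 (SE 0.484) and 1.42 between days 7 and 21 (SE 0.515).

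Between days 14 and 21 none of the 4 tested thrombospondin genes was called. Differences were 0.30 for Thbs1 (edgeR adjusted p 0.833), 0.45 for Thbs2 (edgeR adjusted p 0.784), -0.57 for Thbs3 (edgeR adjusted p 0.456) and 0.48 for Comp (edgeR adjusted p 0.726), and the fitted difference of Thbs4 was 0.79 (SE 0.511). That of Thbs2 was 0.0054 without day 21 replicate 1 and 1.05 without day 14 replicate 1, and was called in neither. Over all 17457 genes edgeR called 0% of genes here, with 1714 at an unadjusted p under 0.05, and DESeq2 called 106.

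Levels per kilobase of exon allow the genes to be set side by side. The summed level of the family was 72.7 ± 29.6 CPM per kilobase at day 0 (SD, n = 4), 154 ± 45.7 at day 7 (n = 4), 219 ± 81.0 at day 14 (n = 4) and 270 ± 86.4 at day 21 (n = 3). Thbs1 made up 72.2% ± 12.6 of it at day 0 and 88.5% ± 5.61, 88.6% ± 1.43 and 89.1% ± 2.37 at days 7, 14 and 21. Thbs3 was the next at day 0, with 26.7% ± 12.2, and made up 6.45% ± 2.95 at day 7, 5.25% ± 2.46 at day 14 and 2.66% ± 0.569 at day 21. The share of Thbs4 went from 0.0783% ± 0.0796 at day 0 to 4.0% ± 2.91 at day 7, 3.67% ± 1.26 at day 14 and 5.44% ± 1.91 at day 21. Thbs2 went from 0.903% ± 0.368 at day 0 to 2.59% ± 0.734 at day 21, and Comp stayed at or under 0.323% in every library.

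At day 0 the order of the levels per kilobase was Thbs1, Thbs3 and Thbs2, with ranges that did not overlap, followed by Comp at 0.0436 to 0.128 CPM per kilobase and Thbs4 at 0 to 0.0919, which overlapped. At day 7 Thbs3, at 5.37 to 11.4 CPM per kilobase, overlapped with Thbs4 at 1.56 to 8.66, and Thbs4 overlapped with Thbs2 at 0.693 to 1.88. At day 14 Thbs2, Thbs3 and Thbs4 overlapped with each other. At day 21 Thbs4, at 8.45 to 18.5 CPM per kilobase, lay above Thbs3 at 6.42 to 7.58, and Thbs2 at 3.49 to 11.03 overlapped with both. Thbs1 was above and Comp below all others at days 7, 14 and 21. The ratio of Thbs4 to Thbs3 per kilobase was at most 0.0048 at day 0, and was 1.32 to 2.82 at day 21.

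**Figure D4:**
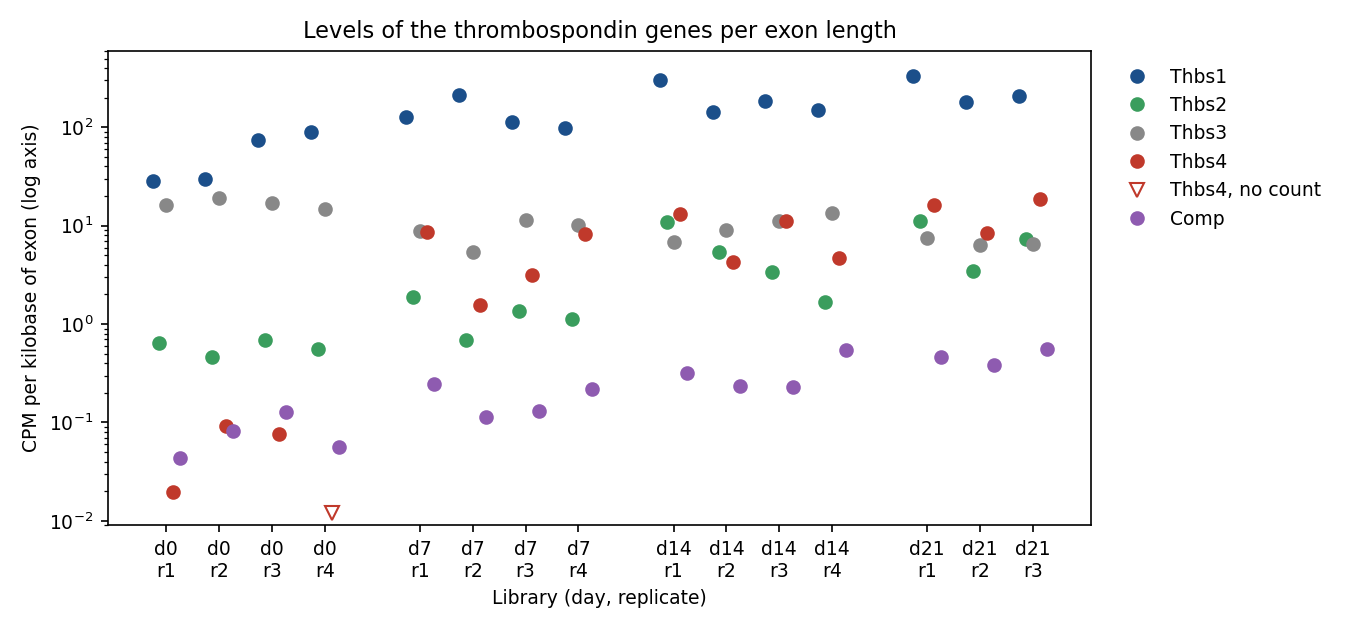
Level of each thrombospondin gene in CPM per kilobase of exon (y axis, log axis) in each library (x axis, d is the day and r the replicate), with an open triangle at the bottom for a library with no count. Thbs1 is the highest gene in every library, at 28.7 to 331 CPM per kilobase, while Thbs4 moves from the bottom of the plot at day 0 to above Thbs3 in all 3 libraries of day 21.

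Fibroblasts and myofibroblasts are major sources of matrix in the injured lung, and 9 of their genes were set beside the family. Their summed level was 1495 to 2067 CPM at day 0, 5201 to 6445 at day 7, 3939 to 14210 at day 14 and 5113 to 10270 at day 21. The sum was mostly collagen transcripts, with Col1a1, Col1a2 and Col3a1 at means of 2282, 2047 and 1797 CPM at day 14. Pdgfra averaged 305 CPM and Tagln 1.24 CPM at day 14, and neither was called at any later day. Of the 9 genes, 5 were called higher at day 7, 7 at day 14 and 7 at day 21, and none lower. Without day 14 replicate 1 the count at day 14 was 5. The largest sums at days 14 and 21, 14210 and 10270 CPM, were in replicate 1 of each day, which also had the highest Thbs1 and Thbs2 of its day. Thbs3 was the lowest of its day in that library at day 14, at 32.8 CPM, and the highest of its day in that library at day 21, at 36.5 CPM. At day 7 the sum was already above day 0 in all libraries, and Thbs4 was at 5.14 CPM or more, while Thbs2 ranged from 4.86 to 13.2 CPM. Sums under the day 7 range were found in day 14 replicates 2 and 4 and day 21 replicate 2, at 5128, 3939 and 5113 CPM. Thbs2 was at 37.5, 11.8 and 24.4 CPM in those libraries. The part of these cells in the thrombospondin levels was not tested.

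**Figure D5:**
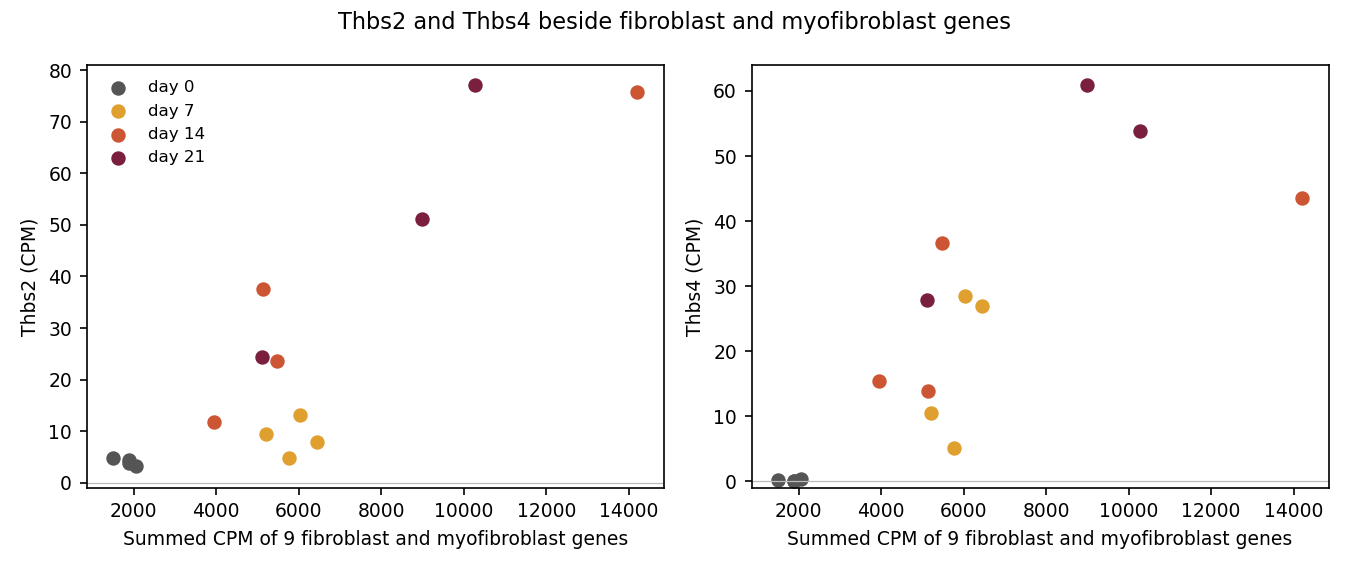
Thbs2 (left) and Thbs4 (right) in CPM (y axes) against the summed CPM of 9 fibroblast and myofibroblast genes (x axes), with 1 point per library coloured by day. Day 7 libraries lie at 5201 to 6445 CPM on the x axes with Thbs2 at 4.86 to 13.2 CPM, and the day 14 library at 14210 CPM has 75.7 CPM of Thbs2. The day 14 library at 5128 CPM has 37.5 CPM of Thbs2, and the one at 3939 CPM has 11.8 CPM.

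Other cell types were described by the same counts. Of 8 macrophage genes, 4 were called higher at day 7, 6 at day 14 and 5 at day 21, when 1 was called lower, and their summed level was 6780 to 7983 CPM at day 0, 4300 to 7820 at day 7, 8912 to 10910 at day 14 and 5113 to 10220 at day 21. This sum was mostly Lyz2 and Spp1. Lyz2 averaged 6999, 5299, 6877 and 4297 CPM at days 0, 7, 14 and 21 and was not called, and Spp1 averaged 60.6, 534, 2149 and 2848 CPM. Of 7 endothelial genes, 1 was called lower at day 7, 3 at day 14 and 1 at day 21, when 1 was called higher. Without day 14 replicate 1 the endothelial count at day 14 was 2 lower. Of 5 mesothelial genes, none was called at day 7 and 1 was called higher at each of days 14 and 21. Over all genes, 8.78% were called higher and 7.36% lower at day 7, and 12% and 11.2% at day 14. At day 21 these shares were 12.4% and 10.1%, and a count of 1 in a list this short lies near them. The part of macrophages, endothelial cells and mesothelial cells in the thrombospondin levels was not tested either.

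Genes with a pattern close to each member were taken by Pearson correlation of log2 CPM over the 15 libraries, which share the days and the day 0 controls. For Thbs1 these were Apol6 (r = 0.967), Oacyl (0.951), Hpgds (0.942) and E2f3 (0.939). For Thbs2 they were Grem1 (0.970), Megf10 (0.967), Loxl3 (0.966), Apoe (0.962) and Cthrc1 (0.962), of which Grem1 encodes a BMP antagonist and Loxl3 a lysyl oxidase. For Thbs4 they were Wnt10a (0.971), Nrcam (0.970), Col24a1 (0.963), Frzb (0.962) and Tnc (0.958), of which Wnt10a is a Wnt ligand, Frzb a secreted Wnt antagonist and Tnc the matrix protein tenascin C. For Thbs3 they were Cdh16 (0.941), Hist2h2be (0.938), Gzmm (0.935), Bpifb5 (0.931) and Zcchc8 (0.918), and for Comp they were Spsb4 (0.919), Creg2 (0.917), Acp5 (0.905), Mmp13 (0.899) and Mark1 (0.897).

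Within days the picture differed, because deviations from the day means carry no change over time. The genes with the closest deviations were Cntln (0.940), Pip5k1c (0.934) and the immediate early gene Fosb (0.891) for Thbs1, and Tm7sf3 (0.951), Phgdh (0.910) and Cthrc1 (0.909) for Thbs2. They were Hist2h2be (0.918), Dgkb (0.907) and Tril (0.896) for Thbs3, Aldh1b1 (0.892), Ribc1 (0.844) and Cyp2ab1 (0.843) for Thbs4, and Dnajb3 (0.945), Rnf32 (0.853) and Bco2 (0.795) for Comp. Cthrc1, a secreted protein of activated fibroblasts, was in both sets for Thbs2, and Hist2h2be was in both for Thbs3. The sets are not independent, since the correlation over libraries includes the deviations. By Spearman rank, the within-day correlation was 0.743 for Cthrc1 and 0.854 for Hist2h2be. All named genes are the top of a ranking of 13945 candidates or more and carry no test. Among the 10 pairs of members, Thbs2 with Thbs4 and Thbs4 with Comp had within-day correlations of 0.51, Thbs3 with Comp of 0.41, Thbs1 with Thbs2 of 0.312, Thbs3 with Thbs4 of 0.279 and Thbs1 with Thbs3 of -0.543. The other 4 pairs lay between -0.238 and -0.00584.

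Thrombospondin receptors were measured next. The receptor list, like the other lists, was chosen with earlier results of these data known, and all 15 of its genes were tested. At day 7, 5 were called higher and none lower, at day 14 7 were higher and 1 lower, and at day 21 5 were higher and none lower. Without day 14 replicate 1 the count at day 14 was 6 higher and 1 lower, and Lrp1 lost its call at 0.35 (edgeR adjusted p 0.0543). With all libraries, the median log2 fold change of the receptors was 0.435, 0.481 and 0.383 at days 7, 14 and 21, against 0.0096, 0.016 and 0.024 over all genes. Of the 6 integrin subunits listed, 3 were called higher at day 14 and the other 3, Itgb1, Itga4 and Itga6, were not called at any later day, with day 14 changes of 0.48, -0.42 and 0.28. At day 14 Itgb3 rose by 1.32 (SE 0.286, edgeR adjusted p 0.0025), Itgav, its partner in the αvβ3 integrin, by 1.12 (SE 0.181, edgeR adjusted p 0.000293) and Itga3 by 0.99 (SE 0.162, edgeR adjusted p 0.000317). Sirpa, which like thrombospondin 1 binds CD47, rose by 0.89 (SE 0.164, edgeR adjusted p 0.000785). Cd36, the receptor of the type 1 repeats, and Cd47, the receptor of the C-terminal part of thrombospondin 1, were looked at after their values were seen. Cd36 fell from 1272 ± 204 CPM at day 0 to 732 ± 89.1 CPM at day 14 (n = 4 each), a log2 fold change of -0.80 (edgeR adjusted p 0.000804). Cd47 had a log2 fold change of -0.44 at day 14 (edgeR adjusted p 0.00267), which is within the fold threshold, so it was not called.

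Of 13 growth factors and proteases that thrombospondins bind or that cut them, 11 were tested. At days 7 and 14, 5 were called higher and 1 lower, and at day 21, 7 higher and 1 lower, with median log2 fold changes of 0.434, 0.872 and 0.971 at the 3 days. Adamts7 and Adamts12, which encode proteases known to cleave cartilage oligomeric matrix protein, were called higher at each later day. Adamts12 rose from 1.29 ± 0.473 CPM at day 0 to 25.0 ± 25.6 CPM at day 14 (log2 fold change 4.26, SE 0.578, edgeR adjusted p 6.74e-05), where day 14 replicate 1 had 63.5 CPM and the other libraries 10.7 to 13.2 CPM. Without that library the change was 3.2 (edgeR adjusted p 6.9e-06). Adamts7 rose from 3.64 ± 0.659 to 9.37 ± 3.56 CPM (1.36, SE 0.25, edgeR adjusted p 0.000786). Adamts4, an aggrecan-cleaving protease, rose from 1.11 ± 0.490 to 30.5 ± 10.2 CPM (4.78, SE 0.358, edgeR adjusted p 6.85e-07), and the gelatinase gene Mmp2 rose by 1.29 (SE 0.204, edgeR adjusted p 0.000242). The gene called lower was Mmp9, chosen after its values were seen, at -1.28 at day 14 (edgeR adjusted p 0.00635). Tgfb1, whose latent form thrombospondin 1 can activate and which was likewise chosen after its values were seen, was not called, at 0.43 at day 14 (edgeR adjusted p 0.0252).

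Of 9 matrix proteins bound by thrombospondins, 5 were tested and 4 of these were called higher at each later day, with none lower and medians of 1.83, 2.23 and 2.46 over the 5 genes. They were Fn1, which encodes fibronectin, at 3.33 at day 14 (SE 0.367, edgeR adjusted p 1.12e-05), the collagen genes Col1a1 at 2.87 (SE 0.444, edgeR adjusted p 0.000208) and Col1a2 at 2.23 (SE 0.374, edgeR adjusted p 0.0004), and Vcan, which encodes versican, at 1.23 (SE 0.429, edgeR adjusted p 0.0372). The summed level of the list was 18200 CPM in day 14 replicate 1 and 4798 to 6013 CPM in the other day 14 libraries. Without that library the day 14 changes were 2.68 for Fn1, 2.08 for Col1a1 and 1.53 for Col1a2, all called, and 0.62 for Vcan (edgeR adjusted p 0.215), which was not. The collagen genes are also in the fibroblast list, so the lists are not separate evidence.

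Because thrombospondin 4 binds ATF6, 13 genes of endoplasmic reticulum stress were counted. They were Atf6, chaperones and related genes, and the transcription factor genes Xbp1, Ddit3 and Atf4, which were not called against day 0 at any later day. Of the 13 genes, 8 were called higher at day 7, 3 at day 14 and 1 at day 21, and none lower. Their median log2 fold change was 0.655, 0.294 and 0.133, and that of Thbs4 against the same day 0 libraries was 6.79, 7.42 and 8.21. Between days 7 and 21, 2 of the 13 genes were called lower. At day 14 Sdf2l1 rose by 1.13 (SE 0.32, edgeR adjusted p 0.0132), Hspa5, the chaperone BiP, by 0.66 (SE 0.229, edgeR adjusted p 0.0364) and Manf by 0.59 (SE 0.171, edgeR adjusted p 0.015). Pdia4 was called at day 7 (1.02, edgeR adjusted p 0.00764) and not at day 14 (0.61, edgeR adjusted p 0.0615). Atf6 itself, chosen after its values were seen, had log2 fold changes of 0.09, -0.22 and 0.03 at days 7, 14 and 21 and was not called.

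Other proteins with thrombospondin type 1 repeats formed the last list, with 19 of 23 tested. At day 7, 3 were called higher and none lower, at day 14 6 were higher and 2 lower, and at day 21 6 were higher and 1 lower, with medians of 0.252, 0.594 and 0.533. Over all genes, 11.2% were called lower at day 14 and 10.1% at day 21, and the lower counts do not exceed these shares. Without day 14 replicate 1 the count at day 14 was 5 higher and 3 lower. The matricellular gene Ccn4 rose from 3.498 ± 1.09 CPM at day 0 to 48.1 ± 25.0 CPM at day 14 (log2 fold change 3.78, SE 0.364, edgeR adjusted p 4.3e-06). Ccn2, its relative also known as connective tissue growth factor, rose by 1.65 at day 14 (SE 0.345, edgeR adjusted p 0.00199) but had a change of 0.25 at day 7 (edgeR adjusted p 0.618). The other genes named by the size of their change were close to the filter cutoff of 0.586 CPM, and are given without a test. The axon guidance gene Sema5b averaged 0.204, 0.467, 0.999 and 2.21 CPM at days 0, 7, 14 and 21. Rspo4, a Wnt pathway enhancer, averaged 0.911, 0.53, 0.272 and 0.217 CPM. Each passed the filter mainly through the days at which it was higher, and both are in the counts of this list at days 14 and 21. Sema5b is among the genes counted as higher. Rspo4 is the only gene counted as lower at day 21, and Ccn3 is the other gene counted as lower at day 14.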

How the data were processed

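Polyadenylated whole-lung RNA was sequenced in 15 libraries. The authors trimmed reads with TrimGalore, aligned them to mm10 with HISAT2 2.1.0, left out multi-mapped reads and deposited raw counts per Ensembl gene from HTSeq 0.6.0, with no normalization. The annotation release and strand setting are not given in the sources used here. No column of the table lacked a sample, and no 2 libraries of the same day agreed within sampling noise. Libraries of different days were not compared in this way.

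Groups and replicate numbers came from the sample titles, which give more replicates than the design text of the series. Symbols, coordinates and exon lengths came from GENCODE M21, which matched 33267 identifiers. Counts were tested with edgeR 4.0.16 in R 4.3.3 (filterByExpr by day, TMM, glmQLFit and glmQLFTest, all 15 libraries in 1 fit with day as the only term), and tested on simulated data first. A gene was called at a Benjamini-Hochberg adjusted p under 0.05 over 17457 genes and a fold change over 1.5. Log2 CPM used a prior count of 2. The level per kilobase divides CPM by the exon union.

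Of each pathway list, up to 4 called genes with the largest change at day 14 were named. For each thrombospondin gene, the 5 genes closest in log2 CPM over libraries and the 3 closest in deviations from day means were named, from tested genes with a mean of at least 1 CPM and without predicted gene names. For Thbs1, 1 of these genes is not reported here. The members and lists were chosen with earlier results of these data known.

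Alternatives were DESeq2 1.42.0, limma 3.58.1 voom, RLE factors, total count scaling, no low-count filter, genes averaging at least 1 CPM only, mitochondrial share as a covariate, libraries under 2.5% or over 3.5% mitochondrial share alone, the 2 groups compared alone, a replicate block, glmTreat at a fold change of 1.5 and each library left out in turn. Fits to day 0 replicates 1 and 2 or 3 and 4 alone, and fits of the lists without day 14 replicate 1, were chosen after seeing the data.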

Additional observations from a re-analysis of the deposited data

Results flagged for a closer look

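Changes of a thrombospondin gene against day 0 that differed between later days, by the direct test between those days, were picked out. Thbs2 was 2.07 higher on the log2 scale at day 14 than at day 7 and 2.52 higher at day 21 than at day 7, with 3 of 4 and 3 of 3 libraries above all day 7 libraries. For Comp the difference between days 7 and 21 was 1.38, but it passed the filter on low counts through its higher libraries, was not called without that filter or with any 1 of the 7 libraries left out, and is not taken as a change. The tests and the libraries these calls rest on stand with the values above. In none of the groups of 4 libraries did a single library of a thrombospondin gene stand apart by Dixon's criterion at 95%.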

How the results depend on the processing

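Of 445 values of Thbs1, Thbs2, Thbs3 and Comp under an alternative, 415 kept their direction and side of the threshold, 27 lost a call, 1 gained a call and 2 changed direction. The 113 values of Thbs4 carry no test, and all kept their direction. With glmTreat, calls were lost for Thbs1 at day 7 (1.32), Thbs3 at days 7 (-0.91) and 14 (-0.72), Thbs2 from day 7 to 14 (2.07) and Comp from day 7 to 21 (1.38), a stricter null by construction. With mitochondrial share as a covariate, Thbs1 at day 7 was 1.63, Thbs3 at day 7 -0.77, Comp from day 7 to 21 1.27, and Thbs3 from day 7 to 14 changed direction to -0.0092. Within the libraries of higher share Thbs3 was -0.50 and Comp 1.86 at day 14. Without the filter Comp was 1.35 from day 7 to 21, and with voom Thbs2 was 1.84 from day 7 to 14. The 2 groups alone gave a called 1.08 for Thbs2 at day 7. Against day 0 replicates 3 and 4 alone, chosen after seeing the data, Thbs1 was 0.73 at day 7 and Thbs3 -0.67 at day 14. Apart from glmTreat and the smaller fits, the cause of these shifts was not tested. Leaving out 1 library gave 1.04 to 1.62 for Thbs1 at day 7, 1.46 to 2.36 for Thbs2 from day 7 to 14, 1.21 to 1.57 for Comp from day 7 to 21 and -0.0096 to 0.59 for Thbs1 from day 14 to 21, where the change of direction came without day 21 replicate 1.

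Genes called over the whole table numbered 2818 at day 7, 1269 with the covariate, 703 with glmTreat and 1275 against day 0 replicates 1 and 2 alone. They numbered 4040 at day 14 and 3924 at day 21, against 1755 and 1754 with glmTreat. From day 7 to 14 they numbered 1048, against 218 with the covariate, 14 with glmTreat, 1641 with DESeq2 and 340 to 1300 with 1 library left out. From day 7 to 21 they numbered 1665, against 942, 176 and 966 to 1822. The 907 higher and 758 lower genes at day 21 became 385 to 911 higher and 493 to 911 lower with 1 library left out. The count of 385 came without day 21 replicate 1. From day 14 to 21 the genes called numbered 0, against 37 without the filter, 106 with DESeq2 and 0 to 127 with 1 library left out. The replicate numbers name samples only. Same-numbered libraries correlated in their deviations by -0.284 to 0.453, and 7 of 15 libraries were closest to one of their own number. With the number as a replicate block, 2915, 4113 and 3752 genes were called at days 7, 14 and 21, Thbs1 at day 7 was 1.36, and no call of a thrombospondin gene changed. Comp is absent at a mean of at least 1 CPM, and day 21 had too few libraries for the fits within sets. Comp and Thbs4 at day 0 rest on 15 and 10 counts, which limits their ratios.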
